A study of Mus musculus with 8 samples.

Results

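The 10 genes described here carry out MHC class I presentation: the heavy chains H2-K1 and H2-D1, the light chain B2m, the peptide transporter Tap1 and Tap2, tapasin (Tapbp), the immunoproteasome subunits Psmb8, Psmb9 and Psmb10, and the transactivator Nlrc5. They were taken by symbol, with earlier results of these data known, and all 10 were among the 27998 genes of the count table. Their transcripts were counted in single KL cells, bone marrow cells that carry c-Kit (CD117) and were sorted for absence of the lineage markers CD3, CD4, CD8, CD45R, CD11b, TER119 and GR1. All mice were female B6 mice 3 to 4 months old. SPF mice stayed in a specific pathogen free barrier facility. CVT mice were SPF mice moved to a conventional facility with open cages and non-autoclaved chow, where they shared cages with conventionally bred mice for 1 month. The SPF cells came from 4 pools (pools 1, 2, 7 and 8) and the CVT cells from 4 pools (pools 3, 4, 5 and 6), with 2 or 3 mice in a pool and 10 mice per group by the labels. The study's figure legend instead gives 8 mice per group for these 4 pools each. Cells were assigned to pools by the number that ends their name, read as the number in the sample's description. This gave 12331 SPF and 17560 CVT cells. These totals differ slightly from the cell numbers in the study's methods, and a different assignment of pools to groups would come about as close, so the totals do not settle the assignment and every CVT against SPF value rests on it. The pool is the smallest unit that can be compared, since cells within a pool cannot be assigned to a mouse.

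Class I molecules display peptides from inside the cell to CD8 T cells and to natural killer cells. The proteasome cuts proteins into peptides, the Tap1 and Tap2 transporter moves these into the endoplasmic reticulum, and tapasin holds the empty heavy chain and B2m beside the transporter until a peptide binds. Interferons raise most genes of this pathway, and Nlrc5 raises class I genes through a set of promoter elements, among them the X2 box and the Y box. Haematopoietic stem cells are known to express class I molecules, which mature red cells of the mouse carry at low levels.

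The promoter windows of the chains of the class I molecule, of the Tap1 and Psmb9 pair and of Psmb8 are printed because the levels of these genes followed different patterns across the progenitors. The windows hold 250 bases before and 50 bases from the RefSeq start site on, written 5′ to 3′ on the strand of the gene. They were matched by symbol in RefSeq's annotation of GRCm38.p6, while the labels name mm9 as the build of the counts. Windows were found for 8 of the 10 genes, and Tap2 and Nlrc5 had none. Capitals mark matches, on either strand, to GAAANNGAA (interferon response element core), GGGNATTCC (a kappa B form), TTCNNNGAA (a STAT form), TGACG (X2 box letters) and ATTGG (Y box letters). The windows lie at chr17:34000284-34000583 on the minus strand (H2-K1, for which another listed start gives the window chr17:34000298-34000597), chr17:35262844-35263143 on the plus strand (H2-D1), chr2:122147437-122147736 on the plus strand (B2m), chr17:34187306-34187605 on the plus strand (Tap1) and chr17:34197945-34198244 on the plus strand (Psmb8).
H2-K1: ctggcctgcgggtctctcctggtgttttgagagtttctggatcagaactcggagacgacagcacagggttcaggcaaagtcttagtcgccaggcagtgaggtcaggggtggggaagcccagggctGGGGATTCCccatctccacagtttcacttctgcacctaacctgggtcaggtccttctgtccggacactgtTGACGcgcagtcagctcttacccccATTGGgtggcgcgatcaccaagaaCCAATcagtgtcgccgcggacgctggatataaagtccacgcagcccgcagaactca
H2-D1: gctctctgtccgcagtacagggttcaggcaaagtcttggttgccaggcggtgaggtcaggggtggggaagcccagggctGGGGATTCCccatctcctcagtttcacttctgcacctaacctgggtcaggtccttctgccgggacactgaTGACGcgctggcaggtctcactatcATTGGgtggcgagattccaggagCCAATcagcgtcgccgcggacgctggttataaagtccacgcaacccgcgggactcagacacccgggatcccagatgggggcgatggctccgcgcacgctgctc
B2m: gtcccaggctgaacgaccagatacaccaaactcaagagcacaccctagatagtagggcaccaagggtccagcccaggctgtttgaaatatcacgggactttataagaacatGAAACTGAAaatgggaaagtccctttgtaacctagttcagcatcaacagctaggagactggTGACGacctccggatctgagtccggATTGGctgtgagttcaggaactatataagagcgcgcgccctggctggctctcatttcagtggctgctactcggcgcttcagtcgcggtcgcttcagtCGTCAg
Tap1: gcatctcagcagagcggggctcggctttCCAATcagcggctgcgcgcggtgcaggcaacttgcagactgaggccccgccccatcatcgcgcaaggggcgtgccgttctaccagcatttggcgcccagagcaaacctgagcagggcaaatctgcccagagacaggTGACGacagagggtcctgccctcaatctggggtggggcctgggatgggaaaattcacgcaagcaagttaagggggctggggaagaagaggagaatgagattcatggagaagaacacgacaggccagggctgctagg
Psmb8: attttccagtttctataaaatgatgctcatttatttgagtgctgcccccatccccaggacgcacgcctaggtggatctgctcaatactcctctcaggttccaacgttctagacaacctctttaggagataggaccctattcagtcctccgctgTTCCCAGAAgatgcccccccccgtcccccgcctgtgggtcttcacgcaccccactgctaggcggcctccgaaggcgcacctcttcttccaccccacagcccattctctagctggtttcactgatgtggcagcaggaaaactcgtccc
The letters TGACG followed by ATTGG, with 25 bases between their first letters, stood on the same strand in the H2-K1, H2-D1 and B2m windows and in no window of the other 5 genes. This spacing was chosen after the windows were seen. It occurred in 31 of 32851 RefSeq promoter windows (0.0944%), belonging to 27 of 27025 genes, and among the other genes of the lists used here only in H2-M3, a non-classical heavy chain. The kappa B form, as GGGGATTCC, was present in H2-K1 and H2-D1 and in 0.776% of all windows. The interferon response element core, as GAAANNGAA, occurred in B2m (8.56% of all windows), and the STAT form in Psmb8 (8.30% of all windows). Only this spacing of the interferon element was searched. H2-K1 and H2-D1 both hold the letters tttcacttc, whose reverse strand has GAA and GAAA in the other order and which the search could not match. A window without a match is thus not shown to lack such an element. TGACG alone was found in 5 of the 8 genes (20.8% of all windows) and ATTGG in 6 (37.4% of all windows). Tap1 and Psmb9 run in opposite directions from start sites 226 bases apart, and their windows share 275 bases. These matches describe letters and do not show binding.

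The pools held between 19041749 and 59812346 UMIs (molecules counted once each) in 1888 to 4845 cells, and a cell held 2759 to 49732 UMIs. A total of 522 cell barcodes occurred in more than 1 pool (1048 of 29891 cells). Cells were clustered and clusters named from marker genes, which gave 1013 LTHSC-like (long-term haematopoietic stem cell), 1471 MPP-like (multipotent progenitor), 2060 LMPP-like (lymphoid multipotent progenitor), 2845 CMP-like (common myeloid progenitor), 4331 MEP-like (megakaryocyte and erythroid progenitor) and 4404 GMP-like (granulocyte and monocyte progenitor) cells. Another 6395 of the 29891 cells lay in clusters left unnamed and entered no class comparison. Cells of the other named clusters entered none either. These were 2304 megakaryocyte-like, 2158 monocyte-like, 1661 late granulocyte-like, 953 basophil and mast-like, 168 B-like, 79 dendritic-like and 49 T and NK-like cells. None of the 10 genes was among the 1000 variable genes used for clustering. Of the 48 markers, 38 were highest in the class they name (7 of 8 for LTHSC, 1 of 6 for MPP, 6 of 6 for LMPP, 4 of 6 for CMP, 11 of 13 for MEP and 9 of 9 for GMP). Levels are given as CPM, the UMIs of a gene per 1000000 UMIs of the cells summed in a pool, and are not compared between genes. Procr stood at 77.2 CPM in LTHSC-like cells and at most 5.82 in another class, Dntt at 1118 in LMPP-like cells and at most 26.3 elsewhere, Mpo at 4804 in GMP-like cells and at most 886 elsewhere, and Apoe at 2748 in CMP-like cells and at most 633 elsewhere. The MPP-like name thus rests on few genes, and Cd34 was higher in LMPP-like (473 CPM) than in MPP-like cells (409 CPM), and CMP-like cells also carried the erythroid factor Gata1 at 97.2 CPM beside 108 CPM in MEP-like cells. Other markers went against their names. Myl10 and Pdzk1ip1, listed for CMP, had 12.6 and 57.7 CPM in CMP-like cells and 811 and 174 CPM in LTHSC-like cells. Slamf1, listed for LTHSC, had 13.3 CPM in LTHSC-like and 24.9 CPM in CMP-like cells, and Cnrip1, listed for MEP, had 0.358 CPM in MEP-like and 42.3 CPM in LTHSC-like cells.

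Among the progenitor classes, the chains of the class I molecule were most abundant, as a share of all UMIs, in LTHSC-like cells and fell in each of the other 5. H2-K1, a classical heavy chain, had 1148, 1275 and 1377 CPM in LTHSC-like cells (lowest, median and highest of 8 pools). It had 784, 849 and 922 CPM in MPP-like cells and 337, 447 and 494 CPM in MEP-like cells. No pool of the other 5 progenitor classes reached the lowest LTHSC-like pool, but single clusters did. A CMP-like cluster of 411 cells had 1121 to 1340.5 CPM of H2-K1 in its pools with 20 or more cells. It had 1303.6 CPM of H2-D1 over all pools, beside 1297.5 CPM in LTHSC-like cells. An unnamed cluster of 954 cells had 1079 to 1337 CPM of H2-K1. The part of these clusters in the class differences was not tested. Relative to LTHSC-like cells, with counts scaled by trimmed mean factors (TMM), H2-K1 changed on the log2 scale by -0.51 (SE 0.04) in MPP-like, -0.39 (SE 0.04) in LMPP-like, -0.36 (SE 0.04) in CMP-like, -1.33 (SE 0.04) in MEP-like and -0.83 (SE 0.04) in GMP-like cells. H2-D1, the other classical heavy chain of this strain, had 1130.4, 1277 and 1471 CPM in LTHSC-like cells and 474, 579.6 and 649 CPM in MEP-like cells. Its log2 changes were -0.39 (SE 0.04), -0.25 (SE 0.04), -0.17 (SE 0.04), -0.93 (SE 0.03) and -0.34 (SE 0.03) in the same order of classes, and the CMP-like pools (1026 to 1182 CPM) overlapped the LTHSC-like ones. B2m, the invariant light chain, had 2978, 3599 and 3803 CPM in LTHSC-like cells, 1443, 1624 and 1839 CPM in MEP-like cells and 1849.7, 2032 and 2231 CPM in GMP-like cells. It fell by 0.88 (SE 0.03) on the log2 scale in MEP-like and by 0.49 (SE 0.03) in GMP-like cells. Its log2 change was -0.39 in MPP-like, -0.29 in LMPP-like and -0.25 in CMP-like cells. The highest adjusted p among these 15 tests was 3.89e-05 (edgeR's quasi-likelihood test over 8 pools, adjusted over 10251 genes), and each fall was called under every alternative that could be fitted. H2-K1 and H2-D1 belong to a family of related genes that also holds H2-Q4, H2-Q6 and H2-Q7, so some reads may have been divided among them by the alignment, which was not tested.

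**Figure D1:**
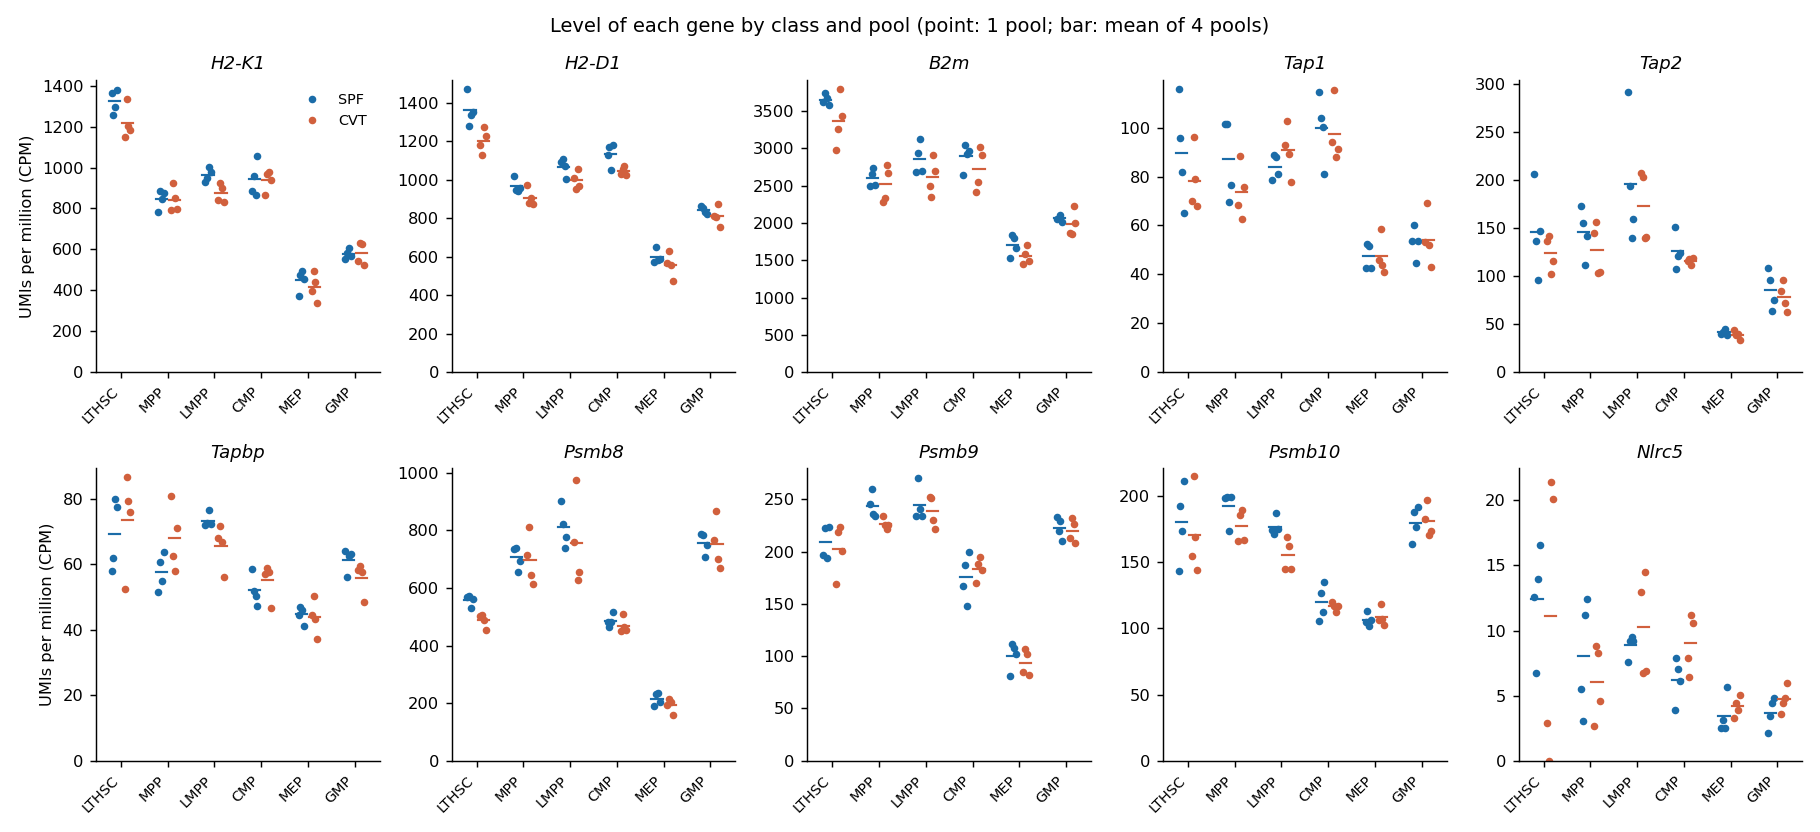
Level of the 10 genes in CPM (vertical axis, linear from 0) in the 6 classes (horizontal axis). Each point is 1 pool, blue for SPF and orange for CVT, and each bar is the mean of 4 pools. H2-K1 ran from 1148 to 1377 CPM in the LTHSC-like pools and from 337 to 494 CPM in the MEP-like pools, and Psmb8 was higher in GMP-like pools (668 to 866 CPM) than in LTHSC-like pools (454 to 572 CPM).

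Of all genes tested, 20.7% were higher and 23.4% lower in MPP-like than in LTHSC-like cells, and 2 of the 10 genes were higher and 4 lower. In LMPP-like cells the background was 18.1% higher and 17.8% lower, and 3 of the 10 were higher and 3 lower. CMP-like cells had 1 higher and 6 lower, beside a background of 21.8% and 23.1%. MEP-like cells had none higher and all 10 lower, beside 36.5% and 40.3%. GMP-like cells had 3 higher and 6 lower, beside 33.3% and 38%. The median log2 change of the 10 genes was -0.91 in MEP-like and -0.31 in GMP-like cells, where the median of all genes tested was -0.05 and -0.08. The size of these changes depends on the scaling. With UMI totals in place of TMM factors, which was tried after the data had been seen, the median of all genes moved by -0.07, -0.08, -0.08, -0.23 and -0.31 in MPP-, LMPP-, CMP-, MEP- and GMP-like cells. The called genes then split into 1738 higher and 2914 lower in MPP-like (2117 and 2394 with TMM), 1426 and 2309 in LMPP-like (1858 and 1827), 1689 and 2771 in CMP-like (2233 and 2363), 2869 and 5024 in MEP-like (3745 and 4132), and 2234 and 5509 in GMP-like cells (3411 and 3900). With doublets removed they split into 2568 and 1863 in MPP-like, 2323 and 1496 in LMPP-like, 2238 and 2352 in CMP-like, 4008 and 3842 in MEP-like and 3823 and 3426 in GMP-like cells, so that more genes were higher than lower in all but CMP-like cells.

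**Figure D2:**
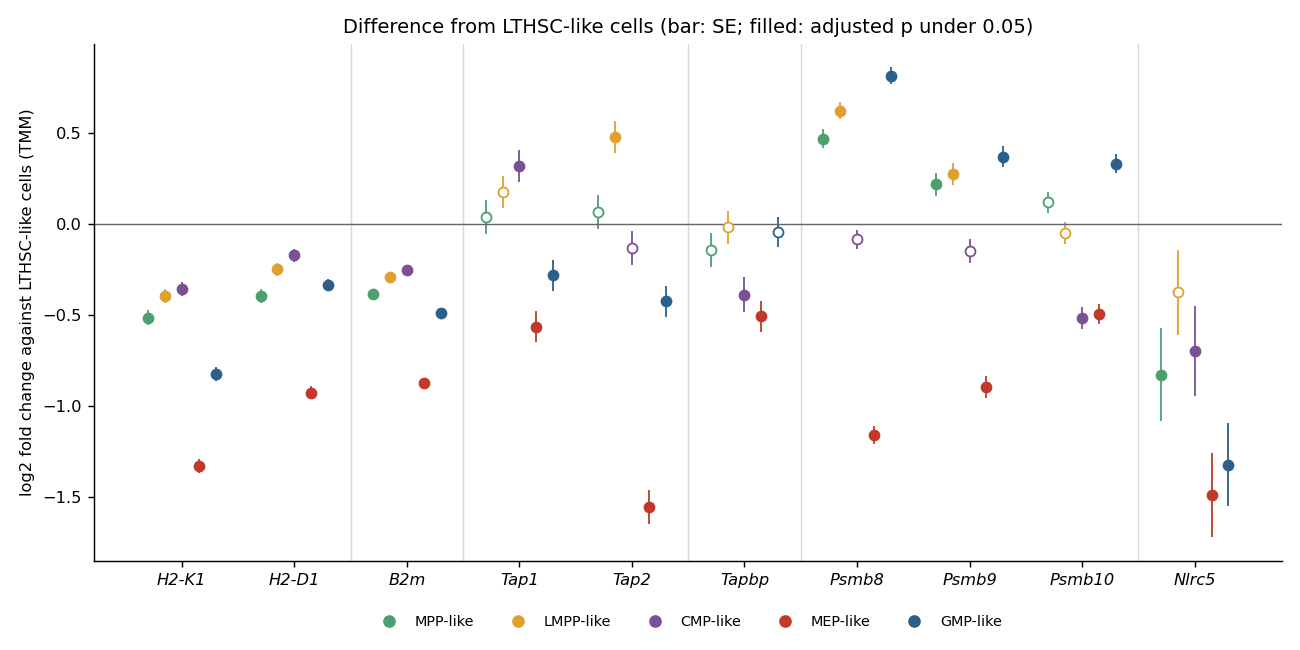
Log2 fold change (TMM scale, vertical axis) of each gene in 5 classes relative to LTHSC-like cells, with SE bars; filled points passed an adjusted p of 0.05 and open points did not. The MEP-like points (red) are filled and below 0 for all 10 genes, and Psmb8 is above 0 in MPP-like, LMPP-like and GMP-like cells.

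The peptide transporter did not share the pattern of the chains. Tap2 was highest in LMPP-like cells, with 139.7, 176 and 292 CPM (lowest, median and highest pool), beside 95.7, 137 and 207 CPM in LTHSC-like and 33.8, 39.6 and 45.2 CPM in MEP-like cells. The highest LMPP-like pool was SPF pool 1, which also had the highest LTHSC-like value, and LMPP-like cells exceeded LTHSC-like cells by 0.48 (SE 0.09, adjusted p = 3.07e-06) on the log2 scale. In MEP-like cells Tap2 fell by 1.55 (SE 0.09), its lowest level, and in GMP-like cells by 0.43 (SE 0.09). Tap1, its partner in the transporter, was highest in CMP-like cells at 81.0, 97.2 and 115 CPM, beside 65.0, 80.4 and 116 CPM in LTHSC-like cells. Its CMP-like level was 0.32 (SE 0.09, adjusted p = 0.00159) above the LTHSC-like one on the log2 scale, although the pools of these classes overlapped. Tap1 fell by 0.57 (SE 0.09) in MEP-like cells and by 0.28 (SE 0.08, adjusted p = 0.00223) in GMP-like cells, the latter not called with doublets removed (adjusted p = 0.0845) or without CVT pool 5 (adjusted p = 0.0634). In MPP-like cells neither transporter gene passed the test (Tap1 0.04, Tap2 0.07), and both values turned below 0 with UMI totals. Tapbp, which encodes tapasin, had 52.4, 76.7 and 86.7 CPM in LTHSC-like cells. It was lower by 0.39 (SE 0.10) in CMP-like and 0.51 (SE 0.09) in MEP-like cells, at 46.6 to 58.9 and 37.0 to 50.4 CPM. In GMP-like cells its log2 change was -0.05 (adjusted p = 0.628) with TMM factors and -0.36 (adjusted p = 0.000139) with UMI totals, and in LMPP-like cells it was -0.02 and turned above 0 with RLE size factors.

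The immunoproteasome subunits stood apart from the chains in GMP-like cells. Psmb8, whose product replaces the constitutive subunit Psmb5, had 454, 519 and 572 CPM in LTHSC-like cells and 668, 758 and 866 CPM in GMP-like cells, with no overlap of pools. Its log2 change was 0.81 (SE 0.05) in GMP-like, 0.62 (SE 0.05) in LMPP-like and 0.47 (SE 0.05) in MPP-like cells, and each was called under every alternative that could be fitted. In MEP-like cells it fell to 159, 205 and 236 CPM, a log2 change of -1.16 (SE 0.05). In CMP-like cells its change of -0.08 was not called with TMM factors (adjusted p = 0.190) but was with UMI totals (-0.16, adjusted p = 0.00798). Psmb9, which replaces Psmb6, had 169, 209.6 and 224 CPM in LTHSC-like and 221, 238 and 270.0 CPM in LMPP-like cells. It was higher in MPP-like (0.22, SE 0.06), LMPP-like (0.27, SE 0.06) and GMP-like cells (0.37, SE 0.06) and lower in MEP-like cells (-0.90, SE 0.06). Psmb10, which replaces Psmb7, was higher in GMP-like cells (0.33, SE 0.05) and lower in CMP-like (-0.52, SE 0.06) and MEP-like cells (-0.50, SE 0.06). With UMI totals the GMP-like rises of Psmb9 (0.06, adjusted p = 0.341) and Psmb10 (0.02, adjusted p = 0.743) and the MPP-like rise of Psmb9 (0.15, adjusted p = 0.0541) were no longer called.

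A ratio of an inducible to its constitutive subunit, taken within the same pool and class, does not depend on the scaling. UMI ratios of different genes do not measure molar ratios, so only their differences between classes are described. Psmb8/Psmb5 was 2.21 ± 0.298 (SD over 8 pools) in LTHSC-like, 2.86 ± 0.393 in LMPP-like, 1.87 ± 0.194 in GMP-like and 0.571 ± 0.0768 in MEP-like cells. Psmb9/Psmb6 was 0.715 ± 0.0775 in LTHSC-like, 0.582 ± 0.0338 in GMP-like and 0.258 ± 0.0326 in MEP-like cells, and Psmb10/Psmb7 was 1.17 ± 0.148, 0.693 ± 0.0561 and 0.396 ± 0.0184. The MEP-like pools lay below the pools of each other class in all 3 ratios. GMP-like cells, in which Psmb8 took a larger share of UMIs than in LTHSC-like cells, did not have a higher mean Psmb8/Psmb5 ratio, and Psmb5 also took a larger share there (404 ± 16.6 CPM beside 239 ± 28.9 CPM).

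**Figure D3:**
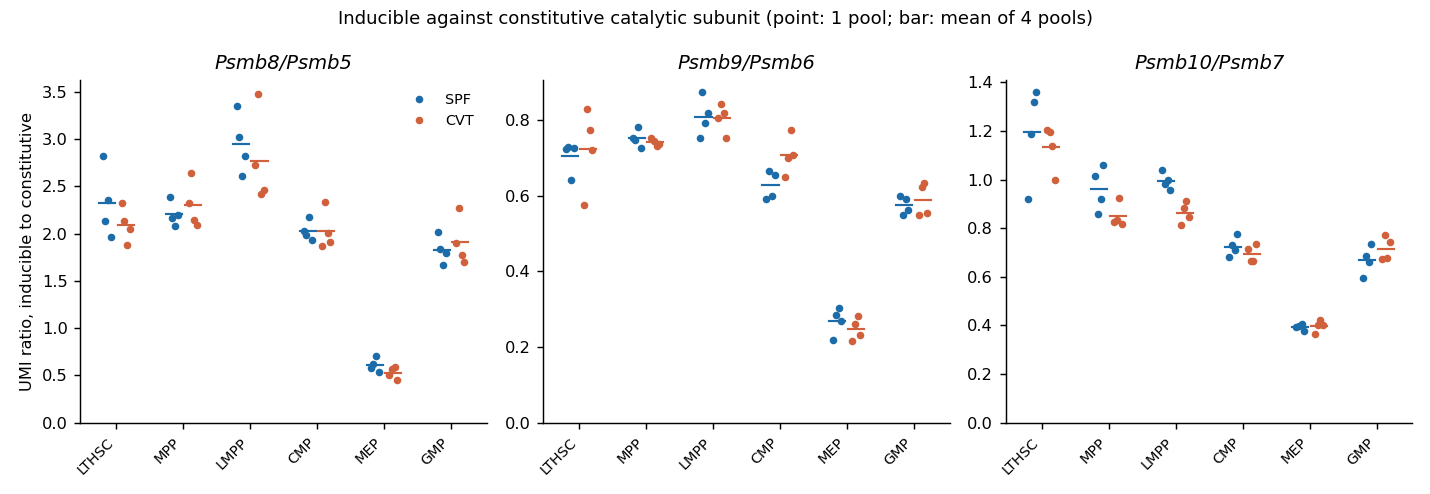
Ratio of UMIs of the inducible to the constitutive catalytic subunit (vertical axis, linear from 0) by class. Each point is 1 pool (blue SPF, orange CVT) and each bar the mean of 4 pools. The MEP-like pools are lowest in all 3 panels, at 0.454 to 0.711 for Psmb8/Psmb5.

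Nlrc5, the transactivator of class I genes, was sparse, with 1989 UMIs in all KL cells and 86 in LTHSC-like cells (0 to 29 per pool). It fell by 1.49 (SE 0.23) on the log2 scale in MEP-like and by 1.32 (SE 0.23) in GMP-like cells. The LTHSC-like pools ran from 0 to 21.4 CPM (median 13.3) and the MEP-like pools from 2.53 to 5.63 CPM (median 3.63), so they overlapped, through CVT pools 3 and 4 at 2.91 and 0 CPM. Its falls in MPP-like (-0.83, SE 0.26, adjusted p = 0.00566) and CMP-like cells (-0.70, SE 0.25, adjusted p = 0.0153) were each lost when single pools were left out. Without CVT pool 5 they were -0.63 (adjusted p = 0.0763) and -0.65 (adjusted p = 0.0560). The MPP-like fall was also lost without CVT pool 6 (-0.63, adjusted p = 0.0558) and the CMP-like fall without SPF pool 8 (-0.58, adjusted p = 0.0879).

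On the log2(CPM + 1) scale, MEP-like cells were the lowest of the 6 classes for all 10 genes. The order was LTHSC-like, CMP-like, LMPP-like, MPP-like, GMP-like and MEP-like, from high to low, for H2-K1, H2-D1 and B2m alike. Of the 50 pairs of neighbours in the orders of the 10 genes, 29 differed at an adjusted p of 0.05 in exact two-sided sign-flip tests over 8 pools, where the smallest p possible is 0.0078. CMP-like and LMPP-like cells did not differ beyond their spread for H2-K1 (difference 0.03, adjusted p = 0.542) or B2m (0.04, adjusted p = 0.326). For Psmb8 the top neighbours, LMPP-like and GMP-like cells, did not differ beyond their spread (0.04, adjusted p = 0.391), and for Nlrc5 none of the 5 pairs did. The correlation of the genes over the 48 sums of class and pool, given as a description because the sums share pools and classes, was 0.960 between H2-K1 and B2m, 0.958 between Psmb8 and Psmb9 and 0.955 between H2-K1 and H2-D1, but 0.0834 between Psmb10 and Nlrc5. The genes outside the 10 whose pattern was most like the mean of the 10, among the 10251 tested, were Sirt3 (Pearson r 0.976), Tes (0.969), Epsti1 (0.968), Tmem176b (0.965), Afap1l1 (0.963), Bin2 (0.963), Ptpn18 (0.962), Klk8 (0.961), Laptm5 (0.960) and Sept6 (0.960). All 10 were lowest in MEP-like cells, as Tmem176b with 20.9 CPM beside 512 CPM in LTHSC-like cells. They were picked for likeness to genes that were lowest there, so this follows from the choice and adds no evidence.

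Levels differed among the 5 MEP-like clusters, in most of the 10 genes but not in all. H2-K1 stood at 649.95 CPM in the 1241 cells led by Car1 and Aqp1, at 498 and 420 CPM in the clusters of 1000 and 983 cells, at 299.8 CPM in 970 cells led by Fam132a and Car2, and at 190.2 CPM in the 137 cells led by the globin genes Hbb-bs and Hba-a1. Psmb8 stood at 366, 257, 185, 100.3 and 82.7 CPM in the same clusters. B2m was lowest in the cluster led by Fam132a and Car2 (1234.5 CPM), not in the globin-led one (1283.5 CPM). Psmb10 differed little among the first 3 clusters (119, 115 and 117 CPM), and Tapbp, at 48.8, 43.2, 44.0, 43.8 and 52.0 CPM, was highest in the globin-led cluster. Median UMIs per cell in these clusters were 10618, 21137, 20079, 30069 and 12115. Among the 4 larger clusters the shallowest had the highest and the deepest the lowest level of H2-K1, and the part of depth in these levels was not tested. Among all 33 clusters, the globin-led cluster was lowest for 6 of the 10 genes and late granulocyte-like or other MEP-like clusters for the rest. The highest clusters were small and outside the progenitor classes. The 79 dendritic-like cells had 2041 CPM of H2-D1 and 215 CPM of Tapbp, and the 49 T and NK-like cells had 1682 CPM of H2-K1, although the sort was against CD3, CD4 and CD8. A cluster of 92 unnamed cells led by Ccl5 and Id2 was highest for Psmb8 (1027 CPM) and Tap2 (225 CPM). A cluster of 330 cells led by the interferon-induced genes Isg15, Rtp4, Ifit1 and Usp18, together with Apoe and Car1, had 811 ± 101 CPM of H2-K1, 2652 ± 257 CPM of B2m, 97.5 ± 12.8 CPM of Tap1 and 531 ± 69.6 CPM of Psmb8 (SD over 8 pools). CMP-like cells had 940.2 ± 65.6, 2810.3 ± 238, 98.5 ± 12.3 and 478 ± 24.8 CPM of the same genes. An unnamed cluster of 1436 cells, led by Csrp3, Car1 and Apoe, had 817 ± 66.4, 2484 ± 191, 81.1 ± 12.5 and 399 ± 25.6 CPM of them. Beside that cluster the interferon-led cells had a similar mean of H2-K1 and higher means of B2m, Tap1 and Psmb8. Which cells are the closest comparison was not tested.

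Classes differed in UMIs per cell, and levels per cell gave another picture than shares of UMIs. Median UMIs per cell lay between 5123 and 6125 in the LTHSC-like pools, 4789 and 5699.5 in the CMP-like, 13587 and 24068 in the MEP-like and 13785.5 and 17359 in the GMP-like pools. A cell with more UMIs may hold more RNA or may have been captured more completely, which cannot be told apart here. H2-K1 had 7.56 ± 0.762 UMIs per LTHSC-like cell (SD over 8 pools), 8.20 ± 1.82 per MEP-like cell and 9.15 ± 1.27 per GMP-like cell. B2m rose from 20.9 ± 1.85 UMIs per LTHSC-like cell to 30.7 ± 4.31 per MEP-like and 31.8 ± 2.71 per GMP-like cell, in 8 of 8 pools each. Psmb8 rose from 3.11 ± 0.336 to 11.9 ± 1.88 UMIs per GMP-like cell, 3.83-fold, again in 8 of 8 pools (adjusted p = 0.0130, exact two-sided sign-flip test, adjusted over 50 comparisons). In CMP-like cells, whose median UMIs per cell overlapped those of LTHSC-like cells, 7 of the 10 genes were lower per cell, as B2m at 15.5 ± 1.40 UMIs. None was higher there, and of all 10251 genes 24.3% were lower and 9.15% higher per CMP-like cell at an exact p no larger than the largest one called. Per cell, 6 of the 10 were higher in MPP-like (43.2% of all genes), 6 in LMPP-like (37.9%), 7 in MEP-like (73.4%) and 9 in GMP-like cells (68.8%). None was lower in these classes, where 5.21%, 5.79%, 10.8% and 7.92% of all genes were. Most genes thus rose per MEP-like and GMP-like cell, and the rises of the 10 genes there are not a result about these genes. The comparison per cell was added after the classes had been seen to differ in UMIs.

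**Figure D4:**
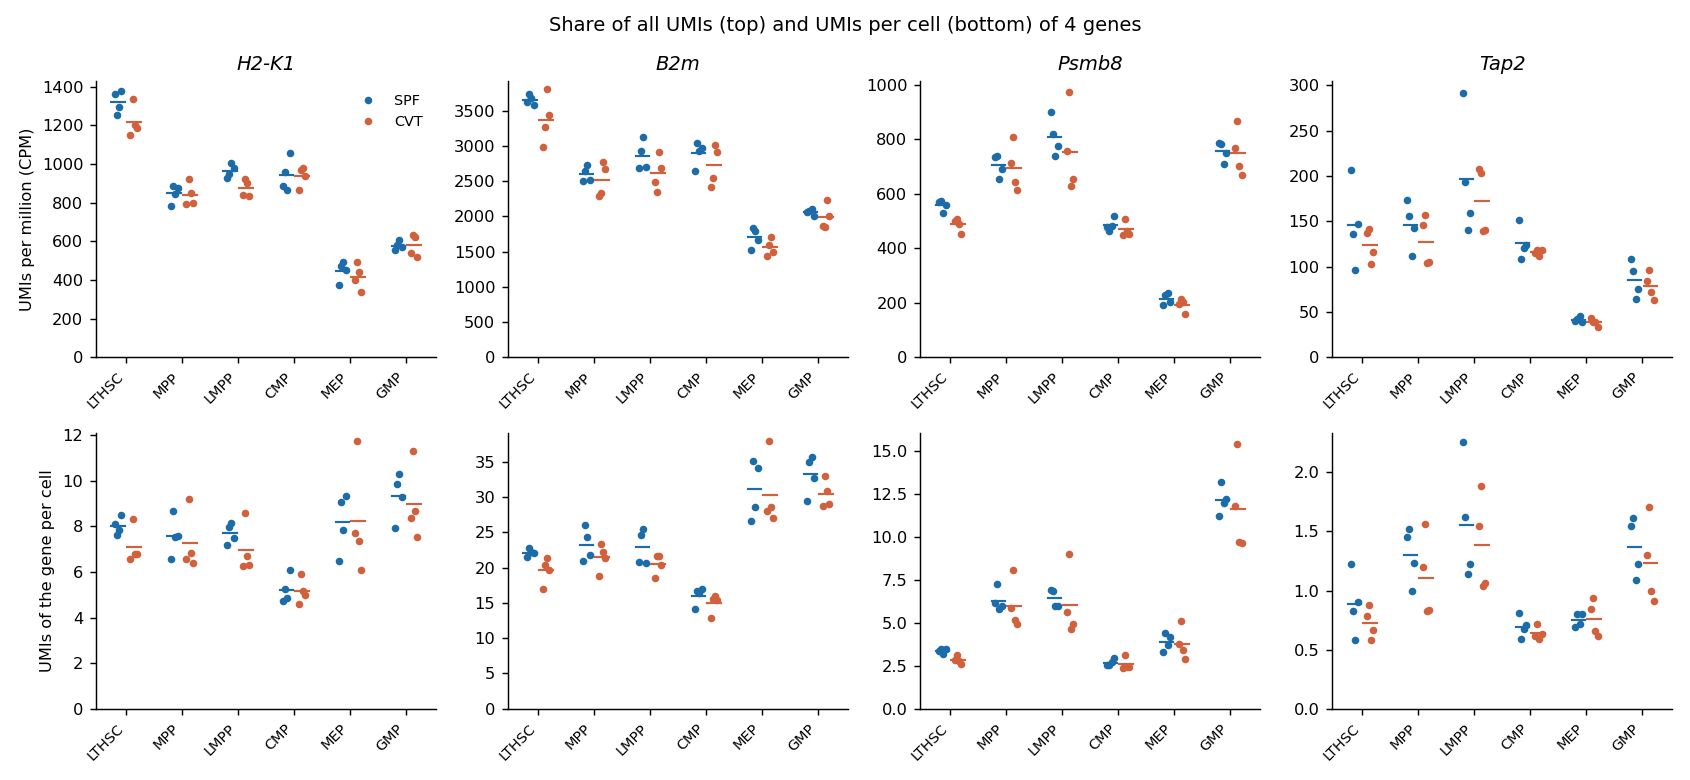
H2-K1, B2m, Psmb8 and Tap2 as CPM (top row) and as UMIs per cell (bottom row), both linear from 0, by class. Each point is 1 pool (blue SPF, orange CVT) and each bar the mean of 4 pools. MEP-like cells are lowest in the top row but not in the bottom row, where B2m was 30.7 UMIs per MEP-like and 20.9 per LTHSC-like cell.

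When each cell was thinned to 2759 UMIs, the smallest total of a cell, H2-K1 was detected in 95.4% ± 1.44 (SD over 8 pools) of LTHSC-like and 67.9% of MEP-like cells. Before thinning, the values were 99.3% and 96.8%. Psmb8 was detected in 76.1% of LTHSC-like, 85.0% of GMP-like and 44.3% of MEP-like thinned cells (93.7%, 99.5% and 87.5% before thinning). B2m was detected in 97.0% or more of thinned cells in each class and Nlrc5 in at most 3.26%. No cell type of the sample is known to lack class I transcripts, so no background share from free RNA could be given.

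The other genes of the pathway, from a list of 36 of which 35 passed the filter on low counts, moved in both directions. In MPP-like, LMPP-like, CMP-like, MEP-like and GMP-like cells, 12, 11, 6, 13 and 17 were higher and 16, 11, 18, 20 and 17 lower than in LTHSC-like cells. The median log2 changes were -0.26, 0.07, -0.21, -0.67 and -0.0015, beside -0.05, -0.01, 0.01, -0.05 and -0.08 over all genes tested. In GMP-like cells the largest rises were of the endoplasmic reticulum chaperones Calr (2.16, SE 0.04) and Hspa5 (1.99, SE 0.06) and of Sec61b (1.57, SE 0.04), a subunit of the protein channel of that compartment, none of them specific to class I. The largest falls there were of Mr1 (-2.43, SE 0.27), which presents vitamin metabolites, and of the non-classical heavy chains H2-Q4 (-2.38, SE 0.09) and H2-Q6 (-2.35, SE 0.10). Irf1, a transcription factor that raises class I genes, fell by 3.15 (SE 0.15) in MEP-like and by 1.32 (SE 0.15) in CMP-like cells. H2-M3 fell by 2.30 (SE 0.12) and H2-Q4 by 2.15 (SE 0.08) in MEP-like cells. Psme3, a proteasome activator of the nucleus, rose by 1.57 (SE 0.08), Ifngr1, a chain of the interferon gamma receptor, by 1.43 (SE 0.07), and Psmb7 by 1.08 (SE 0.05) in MEP-like cells.

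Ifngr1 was also the most raised list member in CMP-like cells (2.28, SE 0.07), where Jak2, the kinase bound to the other receptor chain, rose by 0.51 (SE 0.15) and Psme3 by 0.36 (SE 0.10), while H2-M3 (-1.10, SE 0.12) and Ifngr2 (-1.10, SE 0.21) fell. In LMPP-like cells Ifnar2, a chain of the type I interferon receptor, rose by 1.08 (SE 0.09), Sec61b by 0.39 (SE 0.04) and the proteasome activator Psme2 by 0.36 (SE 0.06). H2-Q6 (-0.91, SE 0.09), Jak2 (-0.77, SE 0.18) and H2-Q7 (-0.75, SE 0.06) fell in these cells. MPP-like cells had rises of Calr (0.99, SE 0.05), Psme3 (0.60, SE 0.10) and Psmb7 (0.51, SE 0.06) and falls of Mr1 (-1.70, SE 0.30), H2-Q4 (-1.28, SE 0.09) and H2-Q6 (-1.15, SE 0.10).

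Interferon-induced genes outside the pathway were mostly lower than in LTHSC-like cells, except in LMPP-like cells. Of 28 genes tested from a list of 32, the numbers higher and lower were 1 and 19 in MPP-like, 7 and 8 in LMPP-like, none and 19 in CMP-like, none and 26 in MEP-like, and 4 and 22 in GMP-like cells. The largest falls were of the interferon-induced GTPases Gbp4 and Iigp1, with -7.06 (SE 0.65) and -6.39 (SE 0.25) in GMP-like cells, and of Ly6a (-5.22, SE 0.13), which was also among the LTHSC markers and is thus no independent evidence of a direction. In LMPP-like cells Ifi27l2a rose by 2.62 (SE 0.18), Irf7 by 1.16 (SE 0.17) and Gbp3 by 0.63 (SE 0.15), while Iigp1 (-1.68, SE 0.18) and Gbp2 (-1.19, SE 0.15) fell. Gbp3 also rose in GMP-like cells (1.35, SE 0.13), where Psmb8 was raised as well. The summed level of the 32 genes ran from 2139 to 3019 CPM in LTHSC-like, 1909 to 2459 CPM in LMPP-like and 695 to 849 CPM in MEP-like pools, and 1 gene was at 0 in every pool. The 7 class II genes, markers of antigen presenting cells, summed to 494 to 745 CPM in LTHSC-like, 239 to 268 CPM in CMP-like and 70.8 to 95.5 CPM in MEP-like pools, with none at 0. Of the 6 tested, 5 were lower in MPP-like, 5 in LMPP-like, 6 in CMP-like, 6 in MEP-like and 5 in GMP-like cells. In MPP-like and in LMPP-like cells 1 was higher. Of all genes tested, 23.4%, 17.8%, 23.1%, 40.3% and 38% were lower in the same order of classes. The part of the class II genes in the changes of the class I genes was not tested.

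The comparison of CVT with SPF mice asks whether conventional co-housing changed these genes. It found no difference past the threshold for any of the 10 genes, in KL cells as a whole or in the LTHSC-like, GMP-like or MEP-like class. In sums over all KL cells, fewer cells of a type and less RNA per cell cannot be told apart. H2-D1 in KL cells had 896, 906, 950.5 and 888 CPM in SPF pools 1, 2, 7 and 8 and 795, 808, 877 and 769 CPM in CVT pools 3 to 6. Each CVT pool was below each SPF pool, yet the log2 change of -0.11 (SE 0.06) did not pass the test (unadjusted p = 0.0734, adjusted p = 0.706, and 0.384 to 0.9999 over 15 alternatives). The share of all tested genes whose pools did not overlap between groups was 6.16% in KL cells, and H2-D1 was the only one of the 10. Within the mice numbered 1 to 10 and those numbered 11 to 20, the log2 ratio of mean CPM of H2-D1 was -0.17 and -0.16. Both signs follow from the lack of overlap and add no evidence. In LTHSC-like cells, where 3.51% of genes did not overlap, H2-D1 and Psmb8 did not. H2-D1 had 1471, 1278, 1338 and 1355 CPM in the SPF pools and 1183, 1130.4, 1277 and 1228 CPM in the CVT pools (log2 change -0.11, SE 0.07, adjusted p = 0.969). Psmb8 had 569, 572, 530.5 and 560.1 CPM in the SPF pools and 501, 507, 489.7 and 454 CPM in the CVT pools (log2 change -0.15, SE 0.08, adjusted p = 0.963). Within the 2 ranges of mouse numbers the log2 ratio of mean CPM was -0.25 and -0.10 for H2-D1 and -0.18 and -0.21 for Psmb8. Since each CVT pool was below each SPF pool, these signs were fixed in advance and add no evidence. In GMP-like and MEP-like cells, where 5.4% and 2.84% of genes did not overlap, the pools overlapped for all 10 genes.

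**Figure D5:**
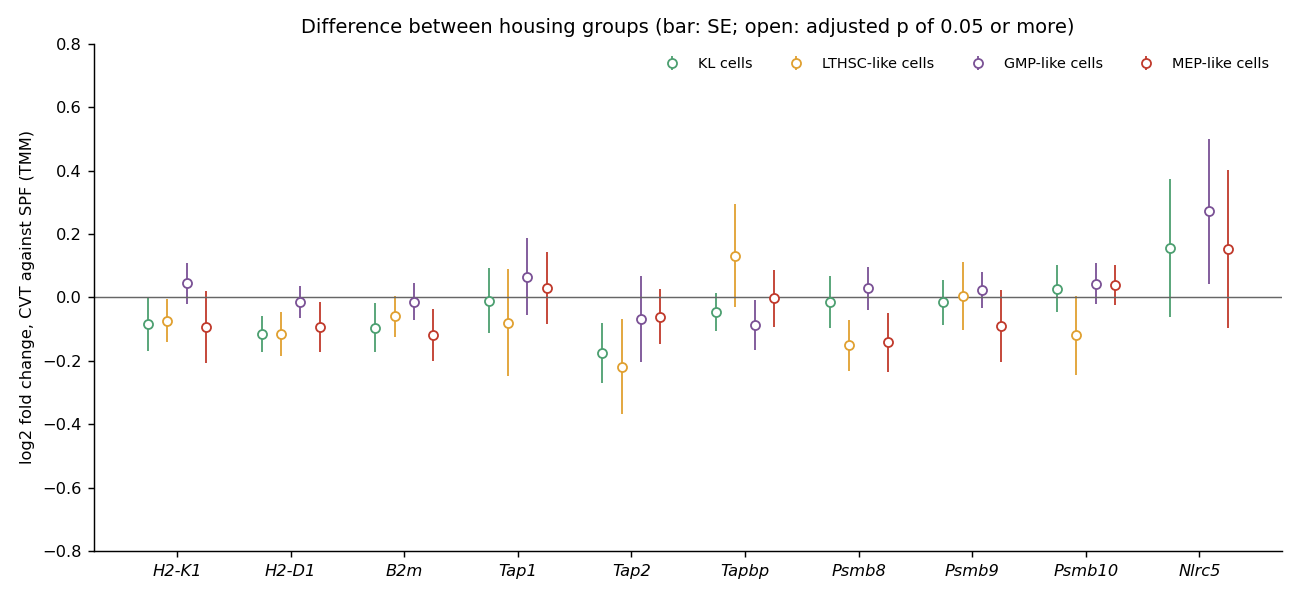
Log2 fold change of CVT relative to SPF (TMM scale, vertical axis) for each gene in KL, LTHSC-like, GMP-like and MEP-like cells, with SE bars. All points are open, since none passed an adjusted p of 0.05, and Nlrc5 could not be tested in LTHSC-like cells; the values lie between -0.22 and 0.27.

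The test called 0 of 13092 genes in KL, 0 of 6788 in LTHSC-like, 0 of 10425 in GMP-like and 0 of 10392 in MEP-like cells (0% each), with 921, 345, 686 and 425 genes at an unadjusted p under 0.05. DESeq2 called 15, 0, 1 and 1 genes and none of the 10. The SE of the log2 change ranged over the 10 genes from 0.06 to 0.22 in KL cells, so differences of the size measured here could not be told from the spread of 4 pools against 4. No interaction of housing with the 2 ranges of mouse numbers passed the threshold for the 10 genes (lowest adjusted p 0.482). Nlrc5 could not be tested in LTHSC-like cells. The lowest unadjusted p of this quasi-likelihood test was 0.0296, for B2m in LTHSC-like cells. With 2 pools per housing group in each range, the test cannot show that the housing effect was the same in both. In KL cells the interferon list had a median log2 change of -0.27 over 31 genes tested, with 2 above 0, 4 at an unadjusted p under 0.05 and none called, while the median of the 10 genes was -0.03. The share of LTHSC-like cells was 2.4999% ± 1.48 in CVT and 4.41% ± 1.25 in SPF pools, and that of GMP-like cells 17.4% ± 4.28 and 10.6% ± 1.198. The CVT pools differed by range of mouse numbers. The LTHSC-like share was 1.238% and 1.197% in pools 3 and 4 and 3.824% and 3.74% in pools 5 and 6. For SPF pools 1, 2, 7 and 8 it was 3.549%, 3.797%, 4.021% and 6.264%. The GMP-like share was 19.77% and 21.86% in pools 3 and 4 and 12.35% and 15.44% in pools 5 and 6. The 8 late granulocyte markers summed to 5645 to 26988 CPM in CVT and 9355 to 44808 CPM in SPF pools, with none at 0. Their part in the values for KL cells was not tested.

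The ranges of mouse numbers differed more than the housing groups. Mice 11 to 20 against mice 1 to 10, a comparison added after the data had been seen and with 2 pools per housing group in each range, gave 2646 called genes in KL cells (20.2%), 13 in LTHSC-like (0.192%), 553 in GMP-like (5.3%) and 89 in MEP-like cells (0.856%). Nlrc5 had 3.73, 5.14, 4.66 and 5.17 CPM in pools 1 to 4 and 7.76, 6.95, 6.36 and 7.17 CPM in pools 5 to 8 of KL cells. All 4 later pools were above the 4 earlier ones, with a log2 difference of 0.58 (SE 0.11, adjusted p = 0.0128). Tap2 had 109, 101, 87.1 and 91.0 CPM in pools 1 to 4 and 79.3, 70.8, 84.5 and 90.4 CPM in pools 5 to 8, a log2 difference of -0.25 (SE 0.05, adjusted p = 0.0154) with pools that overlapped. In GMP-like cells Tap2 was lower by 0.45 (SE 0.07, adjusted p = 0.000804) and Psmb8 by 0.17 (SE 0.05, adjusted p = 0.0486) in mice 11 to 20. The labels do not say how these ranges were handled, and none of the 10 genes was called in LTHSC-like or MEP-like cells.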

How the data were processed

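The authors prepared 3′ libraries of sorted KL cells, and the labels credit the processing to Cell Ranger and mm9 (version not given). They deposited 1 table of raw UMI counts per gene and cell, which was used as deposited. Pools were taken from the suffix of the cell names, an assignment that the study's cell numbers do not settle. The 10 genes and the gene lists were chosen with earlier results of these data known. Cells were scaled to 10000 UMIs, and 1000 variable genes (20 mean bins, at least 10 cells, limit 10) gave 30 principal components, 30 neighbours and Leiden clusters at resolution 2 (scanpy 1.11.5 with leidenalg 0.10.2 under Python 3.11.15). Tables were handled with pandas 2.3.3, sign-flip tests were run with numpy 2.4.6, and sparse counts were held with scipy 1.17.1. Clusters were named from fixed markers among their leading genes by a rule set after the cluster genes, but not the values of the 10 genes, had been seen. UMIs were summed per pool, or per pool and class, and tested with edgeR 4.0.16 in R 4.3.3 (quasi-likelihood, TMM, filterByExpr, Benjamini-Hochberg over all genes tested, adjusted p 0.05). Class comparisons had the pool as a block, since all classes of a pool come from the same mice. Of each list, the 3 genes with the largest called rises and falls per class were named. Scrublet's automatic threshold marked 0.308% of cells, so a rate of 0.8% per 1000 cells was used, which called 965 cells (3.23%). They were kept, and removed in an alternative. Other alternatives were a cell filter (at least 1000 genes, at most 10% mitochondrial UMIs), resolution 1, DESeq2 1.42.0, other size factors, no filter on low counts, the ranges of mouse numbers as a block and leaving out each pool. Pool totals of 19041749 to 59812346 UMIs limit sparse genes such as Nlrc5. Promoters came from RefSeq (GRCm38.p6). Tests were checked on simulated data.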

Additional observations from a re-analysis of the deposited data

Results flagged for a closer look

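In sums over all KL cells, H2-K1 had 608 CPM in SPF pool 1 and 709.8 to 719.99 CPM in the other 3 SPF pools, so that this pool stood apart by Dixon's criterion. Psmb10 had 159 CPM in CVT pool 4 and 140.2 to 143 CPM in the other 3 CVT pools. These were 2 of 80 groups of 4 pools examined, and chance alone sets apart about 1 in 20 groups.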

How the results depend on the processing

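Of the 50 class comparisons of single genes, 38 were called, and 32 of these were called under every alternative fitted. The exceptions were Psmb9 and Nlrc5 in MPP-like, Nlrc5 in CMP-like, and Tap1, Psmb9 and Psmb10 in GMP-like cells. Calls were also gained. With a pool left out, Tap1 in LMPP-like cells was called in 4 of the 8 fits (adjusted p 0.0224 to 0.0444), Psmb10 in MPP-like cells in 3 (0.0095 to 0.0262) and Psmb9 in CMP-like cells in 2 (0.0377 to 0.0399). With doublets removed all 3 were called (0.0162, 0.00295 and 0.0454). None of the 10 genes was called between CVT and SPF under any alternative. At resolution 1 no LTHSC-like cluster was found, so comparisons with that class have no value there. UMI totals, values per cell and the comparison of mouse numbers were added after seeing the data. The cause of the changes below was not tested.

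Genes called between CVT and SPF, 0 in each population, became 15 (KL), 1 (GMP-like) and 1 (MEP-like) with DESeq2, and 19 (LTHSC-like), 27 (GMP-like) and 4 (MEP-like) with no filter on low counts. With the ranges of mouse numbers as a block they became 4 (KL) and 5 (GMP-like), and with a pool left out they ranged from 0 to 3 in GMP-like cells. Without the replicate block, that is without pairing classes of a pool, Tapbp in LMPP-like cells turned to 0.0046, and no call of the 10 genes changed.

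The log2 changes that turned were small and not called. Between CVT and SPF they were, with UMI totals, Psmb10 in KL (-0.023), Psmb9 in LTHSC-like (-0.050), and Psmb8 (-0.011) and Psmb9 (-0.016) in GMP-like cells. RLE factors and DESeq2 turned Tap1 in KL (0.0018 and 0.0045), Psmb9 in LTHSC-like (-0.0020 and -0.0075) and Tapbp in MEP-like cells (0.0012 and 0.0040). No filter turned Psmb9 in LTHSC-like (-0.0047) and Tapbp in MEP-like cells (0.0069), the block Psmb9 in LTHSC-like cells (-0.0058), and resolution 1 Psmb8 in GMP-like (-0.0062) and Tapbp in MEP-like cells (0.0072). Relative to LTHSC-like cells, Tapbp in LMPP-like cells turned with RLE factors (0.0014), DESeq2 (0.0032), no filter (0.030) and doublets removed (0.037). Tapbp in GMP-like cells turned with no filter (0.048) and doublets removed (0.053), Psmb10 in LMPP-like cells with doublets removed (0.014), and Tap1 (-0.034) and Tap2 (-0.0043) in MPP-like cells with UMI totals.

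With each pool left out in turn, these log2 changes took both signs. In KL cells between CVT and SPF the range was Tap1 -0.12 to 0.052, Psmb8 -0.10 to 0.027, Psmb9 -0.056 to 0.028, Psmb10 -0.025 to 0.070. In LTHSC-like cells between CVT and SPF the range was B2m -0.13 to 0.0016, Tap1 -0.28 to 0.018, Psmb9 -0.061 to 0.065. In GMP-like cells between CVT and SPF the range was H2-K1 -0.00045 to 0.092, H2-D1 -0.054 to 0.017, B2m -0.076 to 0.021, Tap1 -0.081 to 0.16, Tap2 -0.18 to 0.034, Psmb8 -0.047 to 0.081, Psmb9 -0.0068 to 0.050, Psmb10 -0.0015 to 0.075. In MEP-like cells between CVT and SPF the range was Tap1 -0.090 to 0.086, Tapbp -0.074 to 0.059, Psmb10 -0.00054 to 0.064. For MPP-like relative to LTHSC-like cells the range was Tap1 -0.032 to 0.17. For LMPP-like relative to LTHSC-like cells the range was Tapbp -0.050 to 0.075, Psmb10 -0.076 to 0.018. For GMP-like relative to LTHSC-like cells the range was Tapbp -0.078 to 0.068.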
